A study of Homo sapiens with 10 samples.

Results

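The amnion and trophoblast genes described here are GATA2, GATA3, TFAP2A, TFAP2B, ISL1, CDX2, HAND1, CGA, VTCN1 and GABRP. They were picked by symbol from the deposited expression table, and all 10 were found among its 64940 genes. Each had a mean of at least 1 TPM (transcripts per 1000000) over the 4 RNA-seq libraries, so all 10 were among the 16687 genes that were tested. The libraries were made from H9, a human embryonic stem cell (hESC) line, with 2 libraries per group. The control libraries, titled Normal, carry the genotype wt and are described in the sample labels as SD cells that differentiated spontaneously from hESCs. The oeDAZL libraries came from human primordial germ cell-like cells (hPGCLCs) in which DAZL, a germ cell RNA-binding protein, was overexpressed. In the study's methods, cells in BMP4 and BMP8a received a lentivirus that carried either DAZL linked to GFP, a fluorescent protein, or GFP alone as the control, and the series design calls the control cells PGCLCs as well. The methods thus describe a control matched in culture and virus, whereas the sample labels describe spontaneous differentiation. If the labels hold, an effect of DAZL and one of the culture cannot be told apart. A single cell line was used, and the labels do not say whether the libraries of a group came from separate cultures, so the P-values measure the spread between these libraries only.

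The amnion is the membrane that encloses the embryo, and trophoblast is the lineage that forms the epithelium of the placenta. GATA2, GATA3, TFAP2A and CDX2 are transcription factors of early trophoblast, and GATA2 and GATA3 with TFAP2A are also switched on in amniotic ectoderm. ISL1 marks amnion and heart progenitors, HAND1 is expressed in trophoblast, extraembryonic mesoderm and amnion, and TFAP2B is known in neural crest and amnion. CGA encodes the alpha subunit shared by chorionic gonadotropin and the pituitary glycoprotein hormones, VTCN1 is an inhibitory ligand of T cells found on trophoblast and amnion, and GABRP is a subunit of the GABA-A receptor used as an amnion marker. hESCs treated with BMP4 are known to yield cells with this expression pattern, and amnion and germ cell precursors share the early response to BMP.

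The promoters of CGA, HAND1 and CDX2 are shown first, since CGA was the only one of the 10 genes called changed, HAND1 had the largest positive change and CDX2 the lowest P-value. The sequences are from RefSeq on GRCh38.p14, cover 250 bases before and 50 after the start, and are written on the strand of the gene. A RefSeq promoter was found for all 10 genes. Capitals mark matches on either strand to GCCNNNGGC, bound by AP-2 factors such as TFAP2A, to AGATAA, bound by GATA factors, to TATAAA, the TATA box, and to TGACGTCA, the cAMP response element. The overlapping capitals in CDX2 belong to 2 matches of the AP-2 motif.

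CGA, chr6:87095057-87095356, reverse strand: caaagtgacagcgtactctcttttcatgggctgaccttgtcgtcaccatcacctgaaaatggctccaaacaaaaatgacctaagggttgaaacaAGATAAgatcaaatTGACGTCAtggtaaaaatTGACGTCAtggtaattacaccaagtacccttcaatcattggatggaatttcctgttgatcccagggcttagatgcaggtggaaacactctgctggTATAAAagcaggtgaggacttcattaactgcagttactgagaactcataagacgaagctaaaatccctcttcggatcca

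HAND1, chr5:154478178-154478477, reverse strand: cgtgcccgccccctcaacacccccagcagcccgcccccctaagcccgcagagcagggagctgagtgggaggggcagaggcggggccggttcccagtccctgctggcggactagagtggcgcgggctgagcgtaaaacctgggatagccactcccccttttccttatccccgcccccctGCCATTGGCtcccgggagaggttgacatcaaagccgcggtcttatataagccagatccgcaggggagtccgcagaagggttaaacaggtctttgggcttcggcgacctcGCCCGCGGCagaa

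CDX2, chr13:27969266-27969565, reverse strand: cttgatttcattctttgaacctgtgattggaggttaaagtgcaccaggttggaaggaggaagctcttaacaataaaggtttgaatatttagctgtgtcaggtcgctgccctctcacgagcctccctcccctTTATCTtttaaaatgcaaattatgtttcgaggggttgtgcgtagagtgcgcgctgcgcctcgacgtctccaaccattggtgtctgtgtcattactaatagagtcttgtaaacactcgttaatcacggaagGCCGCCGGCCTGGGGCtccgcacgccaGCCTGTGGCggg

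Positions are those of the first base of a match, negative before the start. The CGA window held 2 copies of the cAMP response element, at positions −142 and −124, a GATA motif at −156 and a TATA box at −29. It was the only window of the 10 with a cAMP response element, which 1.98% of 27305 RefSeq promoters hold. The AP-2 motif was present in the windows of GATA2, GATA3, CDX2, HAND1 and VTCN1, and in 23.0% of all promoters. AGATAA was present in ISL1, CDX2 and CGA (10.5% of all promoters), and TATAAA in TFAP2A, TFAP2B and CGA (11.95% of all promoters). The GABRP window held none of the 4 motifs. The CGA and TFAP2B windows had a GC content of 42.3% and 43.0%, against 72.3% in GATA2 and a median of 58.3% over all promoters. These matches are letters in a window and were not tested for binding.

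DAZL, the overexpressed gene, was listed at 0 and 0.0333 TPM in control cells versus 102 and 101 TPM in oeDAZL cells. A gene was called when its fold change was at least 2 and its unadjusted P-value in limma was at most 0.05. These are the thresholds of the study, which applied them with another model (DESeq2, on read counts). It reports more genes called in each direction, so the calls given here are not the study's. Fold changes are on the log2(TPM + 1) scale, which understates the change of genes with low TPM. Of all tested genes 0.689% were called in either direction, 21 higher and 94 lower in oeDAZL cells, and with quantile normalization the numbers were 38 and 51. Genes whose limma P-value was under 0.05 after adjustment made up 0.0599%. The first principal component, with 55.5% of the variance, put the controls at −30.1 and −7.97 and oeDAZL at 22.4 and 15.7, so that the controls lay farther apart from each other than the oeDAZL libraries did.

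The 10 genes spanned a wide range of expression. GABRP and HAND1 were among the most abundant transcripts of these cells, whereas TFAP2B lay near the filter. Counted from the top of all genes, GABRP held ranks 71 and 90 in control cells versus 92 and 86 in oeDAZL cells. The ranks of HAND1 were 119 and 107 in control cells versus 89 and 90 in oeDAZL cells. Together these 2 genes took from 76.5% to 81.1% of the summed TPM of the 10, which was 3095 and 2884 TPM in control cells versus 3047 and 3121 TPM in oeDAZL cells. The sum thus overlapped between the groups. In control cells the order of mean TPM ran from GABRP through HAND1, VTCN1, TFAP2A, GATA3, ISL1, GATA2, CDX2 and CGA to TFAP2B, and no neighbours in this order overlapped. In oeDAZL cells HAND1 and GABRP overlapped at the top, and GATA2 stood above ISL1 with no overlap between their libraries.

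**Figure D1:**
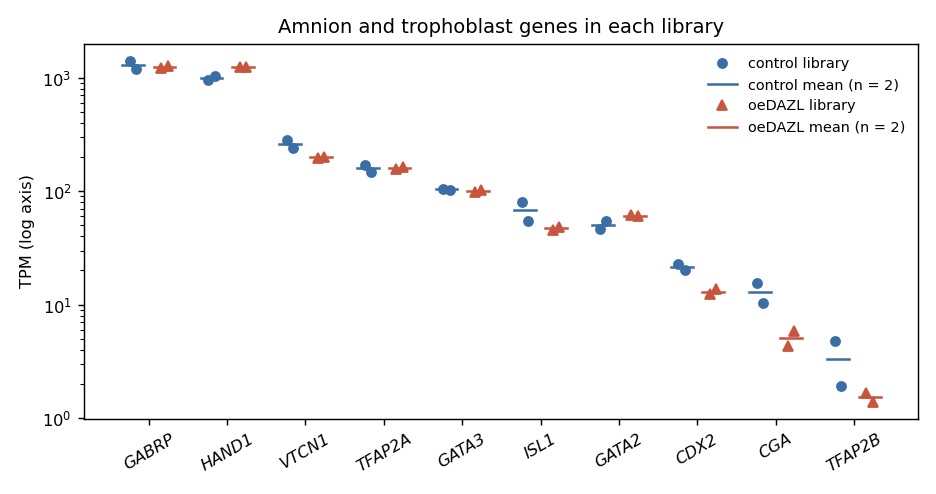
TPM of the 10 genes on a log axis, ordered by the control mean, with circles for the 2 control libraries, triangles for the 2 oeDAZL libraries and bars for the group means. HAND1 and GATA2 lie higher in both oeDAZL libraries, and VTCN1, ISL1, CDX2, CGA and TFAP2B lie lower. GATA3 also lies lower, by a narrow margin.

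Set against the controls, 1 of the 10 genes (CGA) was called lower and 0 were called higher, where 0.563% and 0.126% of all tested genes were. In limma 6 genes had an unadjusted P-value of at most 0.05, a threshold met by 20.2% of all tested genes. Of these, GATA2 and HAND1 were higher (background 5.02%), and ISL1, CDX2, CGA and VTCN1 were lower (background 15.2%). After adjustment 0 of the 10 were under 0.05, and the smallest adjusted p in limma was 0.0896. Without control replicate 2, GATA2, ISL1, CDX2, HAND1, CGA and VTCN1, 6 of the 10, had an adjusted p under 0.05 in limma, as did 833 of all genes in place of 10. The 2 groups did not overlap for 8 genes, against 54.4% of all tested genes. Of the 8, 2 were higher (background 16%) and 6 lower (background 38.4%). The 6 include GATA3, for which control replicate 2 (102.1 TPM) and oeDAZL replicate 2 (101.6 TPM) were nearly equal. The log2 fold change was below 0 for 7 genes and above 0 for 3, where 65.3% and 34.7% of all tested genes were. The median over the 10 was −0.22, beside −0.08 for all tested genes, and it was −0.063 when TFAP2B dropped out at a mean of at least 5 TPM.

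**Figure D2:**
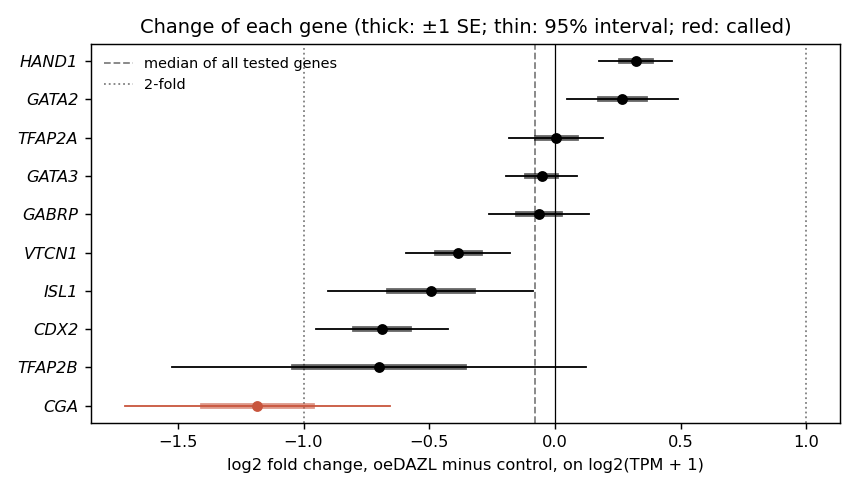
Log2 fold change of each gene, oeDAZL minus control, on the log2(TPM + 1) scale, with thick bars for ±1 standard error, thin bars for the 95% interval of limma, dotted lines at 2-fold and a dashed line at the median of all tested genes. CGA, in red, lies below the 2-fold line at −1.18, and the other 9 genes lie between the 2-fold lines.

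GATA2 and GATA3 encode zinc-finger factors that act early in trophoblast and elsewhere in blood and lymphocytes. Positions are on hg38, and exons are those of the canonical transcript in GENCODE 44. GATA2 (chromosome 3, 128479427 to 128493201, reverse strand, 6 exons) was measured at 46.5 and 54.8 TPM in control cells versus 61.9 and 60.2 TPM in oeDAZL cells. Both oeDAZL values lay above both controls, with control replicate 1 the lowest. Its log2 fold change was 0.27 (standard error 0.09, unadjusted P = 0.0248 and adjusted p = 0.193 in limma), and without control replicate 1 it was 0.15 (unadjusted P = 0.0667 in limma). GATA3 (chromosome 10, 8045378 to 8075198, forward strand, 6 exons) was measured at 106 and 102 TPM in control cells versus 98.4 and 102 TPM in oeDAZL cells. Control replicate 2 and oeDAZL replicate 2 were nearly equal, and the log2 fold change of −0.053 had a 95% interval of −0.19 to 0.087 and an adjusted p = 0.638 in limma. With median-of-ratios scaling the GATA3 change was 0.047, so its sign depends on the scaling.

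As a measure that does not depend on scaling, the ratio of GATA3 to GATA2 was 2.27 and 1.86 in control cells versus 1.59 and 1.69 in oeDAZL cells. All 4 libraries had more GATA3 than GATA2, and the ratio was lower in both oeDAZL libraries. The mean log2 ratio was 1.04 ± 0.20 (SD, n = 2) in control cells versus 0.71 ± 0.06 (SD, n = 2) in oeDAZL cells, a difference of −0.33 (exact permutation test, two-sided p = 0.333, the smallest that 2 against 2 libraries allow). Without control replicate 1 the difference was −0.18. The antisense gene GATA2-AS1, which shares 78 exonic bases with GATA2 on the other strand, was measured at 18.2 and 17.0 TPM in control cells versus 20.4 and 18.4 TPM in oeDAZL cells. The counting is not stated to use strand, so reads in the shared bases cannot be assigned to one gene.

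TFAP2A and TFAP2B encode AP-2 factors, which bind the GC-rich motif shown above. TFAP2A (chromosome 6, 10393186 to 10419659, reverse strand, 7 exons) was measured at 170 and 149 TPM in control cells versus 156 and 164 TPM in oeDAZL cells. The oeDAZL values lay between the controls. Its log2 fold change was 0.0053, with a 95% interval of −0.18 to 0.19 (adjusted p = 0.977 in limma), and its sign turned without control replicate 2 (−0.088) and without oeDAZL replicate 2 (−0.033). TFAP2A shares exonic bases with 2 antisense genes, 438 with TFAP2A-AS1 (between 2.59 and 3.82 TPM) and 941 with TFAP2A-AS2 (between 3.82 and 4.21 TPM).

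TFAP2B (chromosome 6, 50818723 to 50847619, forward strand, 7 exons) was the lowest of the 10, at 4.74 and 1.93 TPM in control cells versus 1.66 and 1.39 TPM in oeDAZL cells. Control replicate 1 was 2.46 times control replicate 2, a wider gap than that between control replicate 2 and either oeDAZL library. The log2 difference was −0.70 (standard error 0.34, unadjusted P = 0.0828 and adjusted p = 0.305 in limma). It was −0.21 without control replicate 1 and −1.19 without control replicate 2, where TFAP2B passed both thresholds for a call (unadjusted P = 0.00380 in limma). The ratio of TFAP2A to TFAP2B was 35.9 and 77.5 in control cells versus 93.9 and 118 in oeDAZL cells, so TFAP2A was the more abundant paralog in all 4 libraries. The mean log2 ratio was higher by 0.997 in oeDAZL cells (exact permutation test, two-sided p = 0.333), and by 0.44 without control replicate 1.

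CDX2 (chromosome 13, 27960918 to 27969315, reverse strand, 3 exons) encodes a caudal homeobox factor of mouse trophectoderm and of the intestine. It was measured at 22.8 and 20.4 TPM in control cells versus 12.3 and 13.7 TPM in oeDAZL cells. The replicates of each group lay close together, and both oeDAZL values were lower than both controls. Its log2 fold change was −0.69 (standard error 0.11, unadjusted P = 0.000616 and adjusted p = 0.0896 in limma), which is short of 2-fold. Over all 14 alternatives the log2 fold change of CDX2 ranged from −0.77 to −0.59. In every alternative that kept all libraries, CDX2, HAND1, CGA and VTCN1 had an unadjusted P-value of at most 0.05 in limma.

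ISL1 (chromosome 5, 51383448 to 51394730, forward strand, 6 exons), a LIM homeobox factor of amnion, heart progenitors and motor neurons, was measured at 80.5 and 55.2 TPM in control cells versus 45.4 and 48.7 TPM in oeDAZL cells. Both oeDAZL libraries were lower than both controls, and control replicate 1 stood above the other 3 libraries. The log2 difference of −0.49 (standard error 0.17, unadjusted P = 0.0245 and adjusted p = 0.192 in limma) became −0.23 without control replicate 1 and −0.76 without control replicate 2. ISL1-DT, a non-coding gene that starts 116 bases from ISL1 on the other strand, was measured at 7.24 and 4.10 TPM in control cells versus 2.47 and 3.77 TPM in oeDAZL cells. Control replicate 1 was the highest library for ISL1-DT as well as for ISL1.

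HAND1 (chromosome 5, 154474972 to 154478227, reverse strand, 2 exons), a basic helix-loop-helix factor needed for placenta and heart, was measured at 958 and 1042 TPM in control cells versus 1250 and 1247 TPM in oeDAZL cells. The oeDAZL replicates were almost equal and lay above both controls. The log2 difference was 0.32 (standard error 0.06, unadjusted P = 0.00156 and adjusted p = 0.0918 in limma), short of 2-fold, and it ranged from 0.26 to 0.42 over the alternatives. HAND2, its paralog, was measured at 6.07 and 5.50 TPM in control cells versus 4.16 and 4.93 TPM in oeDAZL cells and is named after its values were seen.

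CGA (chromosome 6, 87085498 to 87095106, reverse strand, 4 exons) fell in oeDAZL cells and was the only one of the 10 genes called. It was measured at 15.5 and 10.4 TPM in control cells versus 4.34 and 5.82 TPM in oeDAZL cells. Both oeDAZL libraries lay below both controls, although replicates within each group also differed. The control mean was 2.55 times the oeDAZL mean, and the log2 difference of −1.18 (standard error 0.22, unadjusted P = 0.00142 and adjusted p = 0.0896 in limma) passed both thresholds. The call was lost without control replicate 1, where the log2 difference was −0.92, under 2-fold (unadjusted P = 0.00726 in limma). Chorionic gonadotropin needs a beta subunit besides CGA, and CGB7, a gene of that family, was measured at 6.52 and 6.40 TPM in control cells versus 3.64 and 4.22 TPM in oeDAZL cells, with a log2 difference of −0.60 (unadjusted P = 0.00671 and adjusted p = 0.126 in limma). The CGB genes are near-identical copies, so their values after unique mapping are uncertain.

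VTCN1 (chromosome 1, 117143587 to 117210960, reverse strand, 6 exons), a B7-family surface protein, was measured at 283 and 239 TPM in control cells versus 196 and 202 TPM in oeDAZL cells. Both oeDAZL libraries were lower than both controls. Its log2 fold change was −0.38 (standard error 0.09, unadjusted P = 0.00381 and adjusted p = 0.11 in limma), and it was −0.26 without control replicate 1. CD276, another B7-family gene, was measured at 185 and 188 TPM in control cells versus 143 and 138 TPM in oeDAZL cells, with a log2 difference of −0.41 (unadjusted P = 0.000242 and adjusted p = 0.0885 in limma).

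GABRP (chromosome 5, 170763350 to 170814047, forward strand, 10 exons) was measured at 1408 and 1208 TPM in control cells versus 1221 and 1276 TPM in oeDAZL cells. Both oeDAZL values lay between the controls. The log2 difference was −0.063, with a 95% interval of −0.26 to 0.14 (adjusted p = 0.697 in limma), and its sign turned without control replicate 1 (0.047) and with median-of-ratios scaling (0.038). A list of 28 paralogs and partner subunits of the 10 genes, to which HAND2, CGB7, CD276 and TFAP2C belong, had 13 tested and 0 called. Its median was −0.12.

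Control replicate 1 was the extreme control for most of these genes. It was above control replicate 2 for 8 of the 10, against 58.3% of all tested genes, and for 8 of the 10 control replicate 2 lay between control replicate 1 and the oeDAZL mean, against 48.2% of all tested genes. The median absolute difference between the controls was 0.23 on the log2 scale for the 10 genes and 0.14 for all tested genes, and between the oeDAZL libraries it was 0.07 and 0.10. AFP, a fetal plasma protein of yolk sac and liver, was measured at 36.3 TPM in control replicate 1 versus 13.1, 8.91 and 11.6 TPM in the other libraries. Of the 10 endoderm genes 9 were tested, and the 10 summed to 276 and 165 TPM in control cells versus 168 and 211 TPM in oeDAZL cells. The part of other cell types in the differences of ISL1, TFAP2B and CGA was not tested. In bulk libraries fewer cells of a type and less RNA per cell cannot be told apart.

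**Figure D3:**
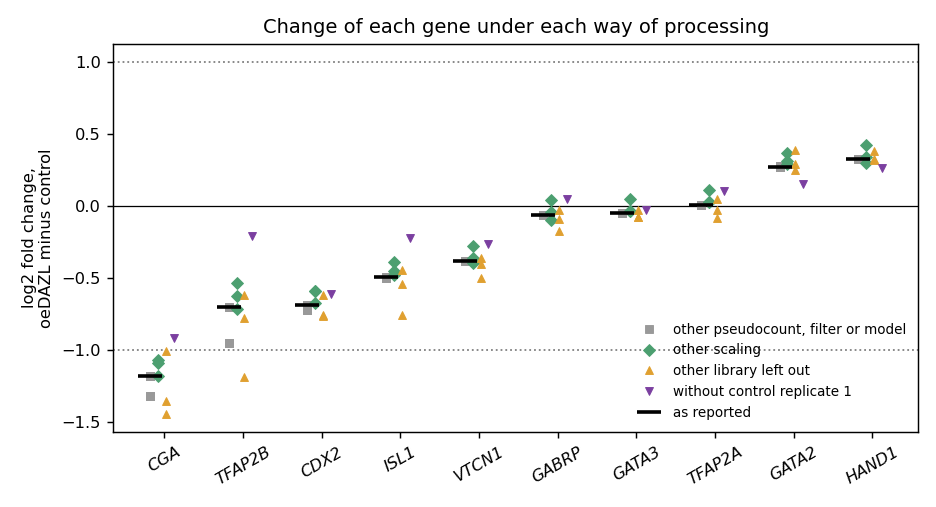
Log2 fold change of each gene, oeDAZL minus control, as reported (black bar) and under each alternative, grouped by kind, with dotted lines at 2-fold. Without control replicate 1 (purple) TFAP2B moves to −0.21 and ISL1 to −0.23, while CDX2 stays at −0.61 and HAND1 at 0.26.

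Related genes were taken from lists and are given by counts, with no test of a list. Of 20 trophoblast transcription factors 19 were tested, and 0 were called. In limma 4 were higher and 2 lower at an unadjusted P-value of at most 0.05, and the median log2 fold change was −0.08, beside −0.08 for all tested genes. MSX2, a homeobox target of BMP signalling, was measured at 201 and 205 TPM in control cells versus 249 and 245 TPM in oeDAZL cells (log2 difference 0.28, unadjusted P = 0.00125 and adjusted p = 0.0896 in limma). TBX3, a T-box factor, was measured at 192 and 192 TPM in control cells versus 225 and 220 TPM in oeDAZL cells (log2 difference 0.21, adjusted p = 0.118 in limma). Both were higher in both oeDAZL libraries and short of 2-fold. HEY1, a Notch target, was measured at 199 and 175 TPM in control cells versus 154 and 173 TPM in oeDAZL cells (log2 difference −0.19, adjusted p = 0.293 in limma).

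The hormone and fusion genes of syncytiotrophoblast were low or listed at 0. Of 25 such genes 7 were tested, 10 were listed at 0 in all 4 libraries, and 0 were called. Of the 7, 4 were lower at an unadjusted P-value of at most 0.05 in limma, 0 were higher, and the median log2 fold change was −0.36. Quantile normalization gave a median of −0.19, and in limma 2 were lower at that P-value with this normalization as well as with median-of-ratios scaling. The placental lactogen genes CSH1 and CSH2 were listed at 0, and so were PSG1, PSG2 and PSG3 of the pregnancy-specific glycoproteins, all named after their values were seen. These families hold near-identical copies, so a 0 after unique mapping is uncertain. SDC1, a proteoglycan of the syncytial surface, was measured at 27.3 and 36.3 TPM in control cells versus 35.2 and 30.5 TPM in oeDAZL cells, and the libraries of both groups overlapped. PGF, placental growth factor, was measured at 19.4 and 17.4 TPM in control cells versus 14.2 and 15.5 TPM in oeDAZL cells, with a log2 difference of −0.29 (adjusted p = 0.206 in limma). CYP19A1, the placental aromatase, lay between 2.62 and 5.37 TPM and is named after its values were seen.

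Of 11 genes of extravillous trophoblast 8 were tested and 0 were called, with a median log2 fold change of −0.17. This median was −0.023 with no filter on TPM and −0.036 with quantile normalization. Of the 8, 5 had a log2 fold change below 0 and 3 above 0. The 3, named after their values were seen, were NOTUM (0.34), MMP11 (0.31) and DIO2 (0.30). HLA-G, the defining surface marker of that cell type, lay between 0.65 and 1.2 TPM in the 4 libraries and is named after its values were seen. MMP2, a matrix protease also made by mesenchyme, was measured at 435 and 462 TPM in control cells versus 393 and 393 TPM in oeDAZL cells. ITGA5, a fibronectin receptor subunit, was measured at 68.9 and 82.9 TPM in control cells versus 68.6 and 65.4 TPM in oeDAZL cells, with both oeDAZL values below both controls (adjusted p = 0.370 in limma). PAPPA2, a placental protease of IGF-binding proteins, was measured at 18.2 and 9.76 TPM in control cells versus 5.62 and 7.13 TPM in oeDAZL cells, with a log2 difference of −0.97 (unadjusted P = 0.0121 and adjusted p = 0.155 in limma). Control replicate 1 was again the highest library for PAPPA2.

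All 18 genes of the amnion epithelium list were tested and 0 were called. In limma 7 were higher and 3 lower at an unadjusted P-value of at most 0.05, and the median log2 fold change was 0.13. The list summed to 13703 and 14108 TPM in control cells versus 15637 and 15389 TPM in oeDAZL cells. Simple-epithelium keratins made up much of it, with KRT18 at 4915 and 5496 TPM in control cells versus 5911 and 5738 TPM in oeDAZL cells and KRT19 at 4250 and 4124 TPM in control cells versus 4608 and 4688 TPM in oeDAZL cells. IGFBP3, which binds insulin-like growth factors, was measured at 1711 and 1816 TPM in control cells versus 2143 and 1978 TPM in oeDAZL cells. CLDN10, a tight-junction protein chosen after its values were seen, was measured at 37.1 and 45.8 TPM in control cells versus 75.3 and 70.6 TPM in oeDAZL cells, with a log2 difference of 0.81 (unadjusted P = 0.000259 and adjusted p = 0.0885 in limma). The 3 lower genes, also named after their values were seen, were NR2F2, a nuclear receptor, WNT6, a Wnt ligand, and the keratin KRT23. NR2F2 was measured at 58.5 and 50.2 TPM in control cells versus 34.4 and 34.2 TPM in oeDAZL cells (log2 difference −0.65, unadjusted P = 0.000332 and adjusted p = 0.0896 in limma). The log2 difference was −0.31 for WNT6 (unadjusted P = 0.00147 in limma) and −0.66 for KRT23 (unadjusted P = 0.0169 in limma). The groups did not overlap for CLDN10, NR2F2, WNT6 or KRT23.

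**Figure D4:**
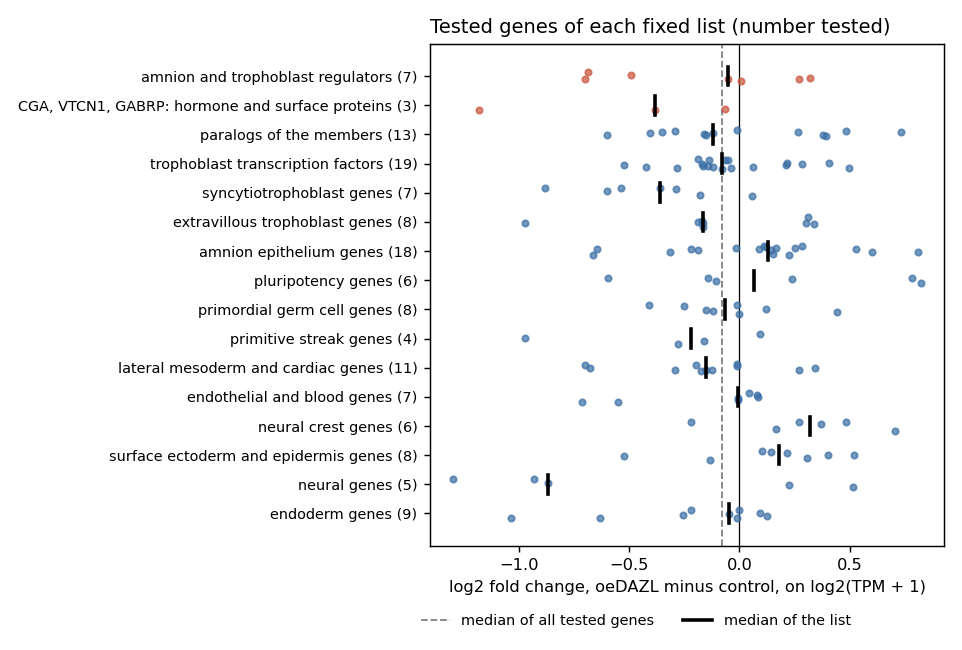
Log2 fold change, oeDAZL minus control, of each tested gene in the fixed lists, with the 10 amnion and trophoblast genes in red in the upper 2 rows, black bars for list medians and a dashed line at the median of all tested genes. The syncytiotrophoblast list has its median at −0.36 and the amnion epithelium list at 0.13.

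Several of the 10 genes are also used by other lineages, so markers of those lineages are given beside them, and their part in the results was not tested. Lateral mesoderm and cardiac genes, relevant to HAND1, ISL1 and GATA2, had 11 of 14 tested, 0 called and a median of −0.15, and their sum overlapped between the groups (871 and 1097 TPM in control cells versus 997 and 953 TPM in oeDAZL cells). Heart genes of the list differed in level, with TBX5 between 0.0249 and 0.169 TPM and NKX2-5 between 8.59 and 11.8 TPM. TNNT2, cardiac troponin T, was measured at 26.0 and 22.4 TPM in control cells versus 14.4 and 14.6 TPM in oeDAZL cells (log2 difference −0.70, unadjusted P = 0.000457 and adjusted p = 0.0896 in limma), lower in both oeDAZL libraries. Of the 11 tested genes of this list, 9 had a log2 fold change below 0. The 2 above 0 were ACTC1 (0.27) and MEF2C (0.34). Endothelial and blood genes, relevant to GATA2, had 7 of 14 tested and 0 called, and summed to 62.7 and 62.8 TPM in control cells versus 54.2 and 58.6 TPM in oeDAZL cells, while PECAM1, HBZ and HBE1 were listed at 0. Neural crest genes, relevant to TFAP2A and TFAP2B, had 6 of 10 tested and 0 called, with a median of 0.32, and summed to 105 and 131 TPM in control cells versus 158 and 154 TPM in oeDAZL cells. SOX10, a defining gene of that lineage, was measured at 1.77 TPM in control replicate 1 versus 0.259, 0.132 and 0.288 TPM in the other libraries. Control replicate 1 was also the library in which TFAP2B was highest, as it was for FOXD3, PAX7 and PAX3 of the list. SOX10, FOXD3 and PAX7 lay below the filter and were not tested. Other genes of the list went the other way. SOX9 (24.9 TPM), SNAI2 (60.9 TPM), NGFR and MITF were lowest in control replicate 1, as was the sum of the list. Surface ectoderm genes had 8 of 12 tested and 0 called, with a median of 0.18, summed to 6730 and 7140 TPM in control cells versus 7730 and 7665 TPM in oeDAZL cells, and had IVL listed at 0. The TBX5, NKX2-5, TNNT2, MEF2C, PECAM1, HBZ, HBE1, SOX10, FOXD3, PAX7, PAX3, MITF and IVL values were picked out after they were seen.

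The labelled cell type was checked in the same way. Of 10 primordial germ cell genes 8 were tested and 0 were called, with a median of −0.066, and the 10 summed to 140 and 159 TPM in control cells versus 163 and 159 TPM in oeDAZL cells. TFAP2C, an AP-2 factor of both trophoblast and germ cells, was measured at 53.9 and 49.1 TPM in control cells versus 44.3 and 50.4 TPM in oeDAZL cells. DDX4 was listed at 0 in all 4 libraries, SOX17 lay between 2.52 and 3.35 TPM and NANOS3 between 0.732 and 1.66 TPM, well below GABRP, HAND1, VTCN1, TFAP2A, GATA3, ISL1, GATA2 and CDX2 in every library. DDX4, SOX17 and NANOS3 were picked out after their values were seen. Other genes of the same list were higher, with PDPN between 32.9 and 58.5 TPM and ITGA6 between 36.1 and 46.1 TPM. Both lay above CDX2 in every library. Of 10 pluripotency genes 6 were tested and 0 were called, with a median of 0.066. In limma 3 of the 6 (POU5F1, TDGF1 and DNMT3B) were higher at an unadjusted P-value of at most 0.05, and 0 were lower. The other 3 had a log2 fold change below 0, with SOX2 at −0.60, LIN28A at −0.14 and DPPA4 at −0.11. For these 3 both oeDAZL libraries lay below both controls. POU5F1, shared by stem cells and germ cell precursors, was measured at 13.6 and 10.6 TPM in control cells versus 22.4 and 20.4 TPM in oeDAZL cells (log2 difference 0.79, unadjusted P = 0.00107 and adjusted p = 0.0896 in limma), and NANOG lay between 0.432 and 0.813 TPM. TDGF1, a Nodal co-receptor, had a log2 difference of 0.82 (unadjusted P = 0.0119 in limma). POU5F1, TDGF1, SOX2 and NANOG were picked out after their values were seen. Of the 8 primitive streak genes 4 were tested and 0 called, with a median of −0.22. Of 10 neural genes 5 were tested, with a median of −0.87 (−0.35 over all 10 with no filter). Of the 5, 3 had a log2 fold change below 0 and 2, NES (0.52) and TUBB3 (0.22), above 0. The 10 summed to 451 and 587 TPM in control cells versus 694 and 640 TPM in oeDAZL cells. PAX6, a factor of neural progenitors and eye, was called lower (log2 difference −1.30, unadjusted P = 0.0233 and adjusted p = 0.189 in limma). PAX6 was measured at 3.83 TPM in control replicate 1 versus 1.14, 0.0967 and 0.558 TPM in the other libraries. Among endoderm genes AFP was called lower (log2 difference −1.04, unadjusted P = 0.0480 and adjusted p = 0.243 in limma). The neural list had 0 calls with no filter on TPM, and the endoderm list had 0 with no filter, with median-of-ratios scaling and with quantile normalization.

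DAZL is known to bind GUU triplets in RNA, and let-7 is a miRNA of differentiating cells, so the 3′UTRs of the 10 genes were searched in GENCODE 44. GUU (GTT in the DNA letters) occurred between 11.4 and 27.2 times per kb in the 10 canonical 3′UTRs, against a median of 15.1 over 19203 3′UTRs. GATA3, with 27.2 per kb, lay at percentile 96.2 and CGA, with 23.3 per kb in a 3′UTR of 258 bases, at percentile 90.9, whereas CDX2 lay at percentile 29.0. These counts are a description of sequence, and binding was not measured. Of the 10 3′UTRs only that of HAND1 held an 8mer for let-7, CTACCTCA, which pairs with bases 2 to 8 of the miRNA and adds an A, and which 3.82% of all 3′UTRs hold. The site lies at chr5:154475055-154475062 of hg38 on the reverse strand, from base 744 of the 834-base 3′UTR. Both sequences are printed below, with the seed of the miRNA and the site in capitals and 11 bases of flank on each side of the site.

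hsa-let-7a-5p: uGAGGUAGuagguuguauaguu

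HAND1 site: ccaacccttttCTACCTCAagtctgtgtga

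HAND1 lay higher in both oeDAZL libraries, as given above. The miRNA libraries of the series come from shLacZ and shDAZL cells and were not analysed here. They hold no let-7 level of the control and oeDAZL cells compared here. The paper reports more mature let-7a-5p in sorted oeDAZL cells than in its control cells. A link between let-7 and HAND1 was not tested.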

How the data were processed

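Total RNA of 4 libraries (2 control, 2 oeDAZL) was analysed, and the 6 miRNA libraries were not analysed here. The authors deposited TPM per gene, made by trimming with Trim Galore, mapping with HISAT2 2.1.0 to hg38, keeping uniquely mapped reads and quantifying with StringTie 2.1.4. The annotation release is not given in the sources used here. TPM keeps no read depth, so depth is unknown and precision rests on the spread between 2 libraries per group. Of 65003 entries, 45 copies of pseudoautosomal genes and 18 repeated entries were left out.

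Values were compared as log2(TPM + 1) with limma 3.58.1 in R 4.3.3 (trend, no covariate, Benjamini-Hochberg adjustment) over the 16687 genes that averaged 1 TPM or more. Replicate numbers were not used to pair the libraries in the main fit. Deviations of same-numbered libraries correlated at −0.10 across genes, which cannot show whether they were made together. The fit was tested on simulated data with 16687 genes, of which 200 changed by 2 on the log2 scale. Of these 97% were recovered, and 55 unchanged genes were also called, beside 115 calls in the real data. The largest change among the 10 genes was −1.18 (CGA), so recovery of changes of their size was not tested. The 10 genes, the lists and the rule for naming list genes (called genes, filled up to 3 by mean TPM) were chosen with earlier results of these data known. Some genes that the rule would name are not reported here. Alternatives covered pseudocount, filter, scaling, trend, replicate block and each library left out. Protein sequences were not analysed here. Promoters and miRNA sequences came from RefSeq (GRCh38.p14), and coordinates and 3′UTRs from GENCODE 44 (hg38), the files' build.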

Additional observations from a re-analysis of the deposited data

How the results depend on the processing

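Of 139 refitted values of the 10 genes, 132 had the same sign and the same call as reported. The sign turned for GATA3 with median-of-ratios scaling (0.047) and for GABRP with that scaling (0.038). With each library left out in turn GABRP ranged from −0.174 to 0.047 and TFAP2A from −0.088 to 0.099, each changing sign. CGA lost its call and TFAP2B gained one as described above, so that 0 to 2 genes were called lower with each library left out in turn. Median-of-ratios scaling gave 5 genes with a positive change in place of 3. With that scaling the share of all tested genes below 0 went from 65.3% to 47.6%. A minimum mean of 5 TPM, which drops TFAP2B, moved the median of the amnion and trophoblast genes to −0.063. Over all genes the calls, 21 higher and 94 lower, became 55 and 267 at pseudocount 0.1, 6 and 23 at a minimum mean of 5 TPM, 38 and 51 with quantile normalization, 340 and 882 at pseudocount 0.1 without a filter (chosen after the values were seen), and from 35 to 88 higher and from 75 to 237 lower with each library left out. In those fits the lone library of a group is assumed to vary like the other group. The cause was not tested.

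The median over all tested genes went from −0.078 to 0.013 with median-of-ratios scaling and to 0.0055 with quantile normalization. List medians also turned positive with median-of-ratios scaling for trophoblast factors (0.020), germ cell genes (0.014), endothelial genes (0.091) and endoderm genes (0.052). With quantile normalization they did so for the list of paralogs and partner subunits (0.015), germ cell genes (0.059) and endothelial genes (0.14). Without turning, the median moved to −0.051 for primitive streak genes with quantile normalization and to 0.16 for neural crest genes with no filter.

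With the replicate block, 1 of the 10 genes was called lower, and over all genes 26 were called higher and 99 lower. TFAP2B had an unadjusted P = 0.0453 in limma with this block, in place of 0.0828. The share of all genes at 0.05 or less was not counted for this model. It changed no call among the 10. A block that pairs control replicate 1 with oeDAZL replicate 2, chosen after the values were seen, gave 28 and 107, and in limma 1089 genes with an adjusted p under 0.05 in place of 10, among them 5 of the 10 (ISL1, CDX2, HAND1, CGA and VTCN1). Without control replicate 2 these counts were 833 and 6, and under every other alternative 0 of the 10 were under 0.05. TPM gives no depth, which limits low values such as those of TFAP2B.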

Other observations

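Abundant genes of the other cell type lists are given by their values, and 0 of those named in these paragraphs were called. BMP4, a ligand of the pathway that induces amnion and germ cell precursors, was measured at 271 and 248 TPM in control cells versus 154 and 170 TPM in oeDAZL cells, with a log2 difference of −0.68 (unadjusted P = 8.30e-05 and adjusted p = 0.0836 in limma), short of 2-fold, and both oeDAZL libraries were lower than both controls. ACTC1, cardiac actin, was measured at 472 and 726 TPM in control cells versus 739 and 676 TPM in oeDAZL cells, and MYL7, an atrial myosin light chain, at 45.6 and 47.9 TPM in control cells versus 40.7 and 44.9 TPM in oeDAZL cells. LIN28A, which blocks the maturation of let-7, was measured at 476 and 428 TPM in control cells versus 417 and 401 TPM in oeDAZL cells, with a log2 difference of −0.14 (adjusted p = 0.292 in limma). DNMT3B, a DNA methyltransferase, was measured at 49.1 and 51.6 TPM in control cells versus 61.1 and 58.2 TPM in oeDAZL cells, and DPPA4, a pluripotency gene, at 45.3 and 44.2 TPM in control cells versus 40.5 and 42.4 TPM in oeDAZL cells. Both DNMT3B values were higher in oeDAZL cells, with an adjusted p = 0.154 in limma.

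PDPN and ITGA6, surface proteins of germ cell precursors that epithelia also carry, were measured at 32.9 and 49.7 TPM in control cells versus 58.5 and 52.5 TPM in oeDAZL cells and at 36.1 and 46.1 TPM in control cells versus 46.1 and 42.8 TPM in oeDAZL cells, respectively. In the neural crest list SNAI2, a factor of epithelial-mesenchymal transition, was measured at 60.9 and 79.6 TPM in control cells versus 90.1 and 90.7 TPM in oeDAZL cells, and SOX9, also a cartilage factor, at 24.9 and 30.4 TPM in control cells versus 47.4 and 43.8 TPM in oeDAZL cells. Both were higher in both oeDAZL libraries. In the surface ectoderm list the simple keratin KRT8 was measured at 6421 and 6792 TPM in control cells versus 7321 and 7269 TPM in oeDAZL cells. RUNX1 and KDR of the endothelial and blood list were measured at 34.3 and 33.8 TPM in control cells versus 33.3 and 34.5 TPM in oeDAZL cells and at 12.6 and 12.7 TPM in control cells versus 8.39 and 8.23 TPM in oeDAZL cells. APOA1 and TTR, carrier proteins of yolk sac and liver, were measured at 171 and 112 TPM in control cells versus 120 and 150 TPM in oeDAZL cells and at 44.4 and 24.4 TPM in control cells versus 23.6 and 31.8 TPM in oeDAZL cells.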
